A study of Mus musculus with 10 samples.

Results

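The immunoglobulin heavy chain constant genes encode the part of an antibody heavy chain that sets its class: Ighm for IgM, Ighd for IgD, the Ighg genes for the IgG subclasses, Ighe for IgE and Igha for IgA. Members were found by symbol in the deposited RNA tables, as the genes named Ighm, Ighd, Ighe or Igha and those whose name starts with Ighg. This gave 4 of the 26599 genes: Ighm, Ighg1, Ighg2c and a gene written only as Ighg, whose gene ID belongs to Ighg2b in the GENCODE M21 annotation. By gene ID, 2 more heavy chain constant genes stood in the tables under older names, Ighg3 as AI324046 and Ighe as Gm900. They are given beside the 4 members, which makes 6 genes. No target carried the symbol Ighd or Igha, so the values below cover no IgD and no IgA, and every share is a share of the listed genes only.

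The series compared mouse naive B cells with plasma cells, the antibody factories of the immune system, in wild-type C57BL/6 mice, and RNA-seq and ATAC-seq (a map of accessible chromatin) are used here with 1 library per cell type each. Per the labels, the naive cells of both assays were a CD23+ IgD+ sort from spleen, and those for ATAC-seq numbered 50000 cells. The plasma cells for ATAC-seq were a bone marrow sort for CD138 without B220, IgD, CD4, CD8, Gr1 and Ter119. For the plasma RNA library the labels conflict, because 1 field names cells activated in culture and the protocol names the bone marrow sort. The RNA libraries held 37.0 M estimated counts (naive) and 43.5 M (plasma). With 1 library per cell type there was no test, no difference below has a replicate check, and the 95% intervals cover counting error only.

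A B cell first makes IgM and IgD from the same rearranged variable exon. Class switch recombination can then move that exon next to another constant gene further along the locus, by deletion of the DNA between. Each heavy chain message can also end at either of 2 places, which gives the membrane form that serves as the B cell receptor or the shorter form that is secreted. Plasma cells are known for a high output of the secreted form. In bulk RNA, fewer cells that make a message and less of it per cell cannot be told apart.

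In GRCm38 the locus lies on the minus strand of chromosome 12, and transcription meets the genes in a fixed order. Ighm comes first at chr12:113418558-113422730, followed by Ighd at chr12:113406604-113416324 and Ighg3 at chr12:113356224-113361232. Ighg1 lies at chr12:113325240-113330523, Ighg2b at chr12:113302965-113307933 and Ighg2c at chr12:113285325-113288932. Ighe at chr12:113269260-113273248 and Igha at chr12:113254830-113260236 come last.

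The IgG genes are close relatives, which matters for how reads are divided among them. The first 60 bases of the first constant exon are shown for the 4 IgG genes, from GENCODE M21 on GRCm38, read 5′ to 3′ on the minus strand, with capitals where a gene differs from Ighg2b.
Ighg2b: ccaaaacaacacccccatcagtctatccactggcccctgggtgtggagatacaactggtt
Ighg2c: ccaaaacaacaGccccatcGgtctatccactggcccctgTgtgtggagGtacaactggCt
Ighg1: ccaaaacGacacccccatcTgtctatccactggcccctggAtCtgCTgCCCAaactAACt
Ighg3: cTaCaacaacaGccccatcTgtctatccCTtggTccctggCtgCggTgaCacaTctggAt
Ighg2c differs from Ighg2b at 5 of these 60 bases, and Ighg1 and Ighg3 at 13 each. Over the whole secreted coding sequence, Ighg2b and Ighg2c were 85.9% identical, and the other IgG pairs 75.8% to 77.7%. The 31-base words of the listed forms of Ighm and the 4 IgG genes were compared with each other. Of these words, 12.7% in Ighg2b and 9.46% in Ighg2c also occurred in another gene of this set. The shares were 2.60% in Ighg3, 0.847% in Ighg1 and 0% in Ighm. Ighe, Ighd and Igha were not compared. Words of 31 bases were used because that is the default word length of kallisto, the program behind the deposited values. Divided reads show in the counts: those of Ighg, Ighg2c and AI324046 were not whole numbers in either library, so the split between Ighg2b and Ighg2c rests in part on the program's estimate. Ighg1 had a whole count in the naive library (598) and not in the plasma library (2826.28), and the Ighm counts are too large for the 6 digits written to show a fraction.

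The membrane and secreted forms of a heavy chain differ only at their 3′ ends. For Ighm the last 30 shared bases are followed, in capitals, by the coding bases of 1 form alone up to its stop codon.
Ighm secreted end: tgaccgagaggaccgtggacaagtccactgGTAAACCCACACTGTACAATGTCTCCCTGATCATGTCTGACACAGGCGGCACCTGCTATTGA
Ighm membrane end: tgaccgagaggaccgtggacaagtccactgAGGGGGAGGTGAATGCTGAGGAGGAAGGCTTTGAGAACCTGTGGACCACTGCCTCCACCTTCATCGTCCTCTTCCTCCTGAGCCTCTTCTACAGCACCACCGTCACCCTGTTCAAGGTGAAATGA
Ighg1 secreted end: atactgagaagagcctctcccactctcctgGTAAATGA
Ighg2b secreted end: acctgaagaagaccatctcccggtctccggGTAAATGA
Ighg2c membrane end: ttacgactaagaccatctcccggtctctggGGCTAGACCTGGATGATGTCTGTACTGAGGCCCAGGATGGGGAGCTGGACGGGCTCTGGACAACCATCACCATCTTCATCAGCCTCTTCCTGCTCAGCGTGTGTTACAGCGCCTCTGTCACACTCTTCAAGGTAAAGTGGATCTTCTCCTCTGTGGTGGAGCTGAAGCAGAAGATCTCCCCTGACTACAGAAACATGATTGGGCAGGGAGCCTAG
The secreted form of Ighm adds 62 coding bases and its membrane form 125. In each IgG gene the secreted form adds only 8 coding bases and the membrane form 215. The deposited tables list 1 target for each of the 6 genes, so that target takes 100% of its gene in both libraries and no membrane to secreted ratio can be read from the files.

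The listed length shows which form each target was. The Ighm target of 1367 bases, the Ighg target of 1010, the Ighg1 target of 974 and the AI324046 target of 992 equal the secreted coding length of their gene with no base to spare. The Ighg2c target of 1212 bases is 2 bases short of the membrane form, which has 1214, and 205 longer than the secreted form, which has 1007. The Gm900 target of 1359 bases was not assigned to a form. Reads from the exons that both forms use count toward whichever target is listed. Of the 1367 bases of the Ighm target, 1305 are in both forms, so the Ighm value is a value of total IgM message more than of its secreted form. The membrane end of Ighg2c is also 97.2% identical to that of Ighg2b, and 33.0% of its 31-base words occur there, while no target held the membrane end of Ighg2b. The effect of this difference in listing on the Ighg2c values was not tested, apart from the length given below.

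All 4 members were higher in the plasma library. The unit is TPM, a share of all transcripts that scales counts by length. A gene's ratio is log2 of plasma over naive TPM with 1 TPM added to each, set against the median gene, which lay at -0.99 on this scale before centring. Genes counted as called when that ratio reached 1 or -1, a 2-fold difference, and 1 of the libraries had at least 5 TPM. By this rule 16.0% of the 10219 genes tested were called higher and 22.1% lower, 38.1% in all. The 4 members stood among the higher 16.0%.

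Ighm, the constant gene of IgM, had 256151 estimated counts and 9261 TPM in the naive library, and 92352 TPM in the plasma library. That is a 9.97-fold rise in TPM, and the centred ratio was 4.30 (interval of the count ratio 4.30 to 4.31). It was the fifth most abundant gene of the naive library, at rank 5, and reached rank 2 in plasma cells. Among all genes tested, 100 had a larger ratio.

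Ighg2c, an IgG2 constant gene that C57BL/6 mice carry where some other strains have Ighg2a, showed the largest ratio of the 6 genes. It had 35.4 TPM from 864 estimated counts in naive cells and 706 TPM in plasma cells, a 19.9-fold rise. The centred ratio was 5.27 (5.21 to 5.40), and 30 of the 10219 genes had a larger one. With the secreted length in place of the listed one, a setting chosen after the values were seen, its levels were 43.0 and 857 TPM, and the rise is the same by construction.

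Ighg, the target of Ighg2b, was the most abundant IgG gene in both libraries. It stood at 166 TPM in naive cells and 1034 TPM in plasma cells, a 6.22-fold rise with a centred ratio of 3.62 (3.57 to 3.68). Its rank went from 806 to 185.

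AI324046, the target of Ighg3, had 77.2 TPM in naive cells and 754 TPM in plasma cells. Its 9.76-fold rise and centred ratio of 4.26 (4.20 to 4.35) were close to those of Ighm. Ighg3 belongs to a subclass known in mice for responses to carbohydrate antigens.

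Ighg1, the constant gene of IgG1, had the smallest ratio among the genes called higher. It measured 30.8 TPM in naive cells and 77.1 TPM in plasma cells, a 2.50-fold rise with a centred ratio of 2.28 (2.18 to 2.44). In the naive library it was within 5 TPM of Ighg2c, and in the plasma library it was the lowest of the 4 IgG genes.

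Gm900, the target of Ighe, went the other way and had few reads. It had 151 estimated counts in naive cells and 18 in plasma cells, which is 5.49 and 0.347 TPM. Its centred ratio of -1.28 put it among the genes called lower, but it passed the 5 TPM minimum only through the naive library. The ratio depended on the setting. It was -2.62 with 0.1 TPM added in place of 1, and -1.46 with TMM factors. With 5 TPM added the ratio was -0.13 and the call was lost.

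**Figure D1:**
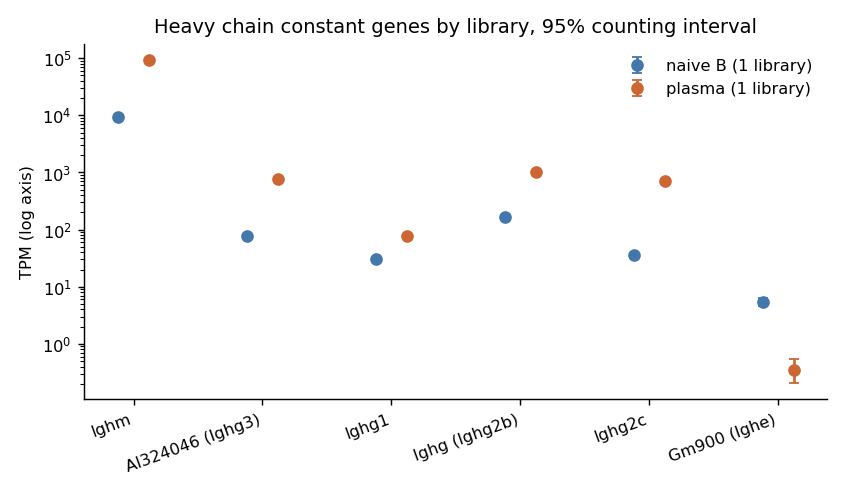
Levels of the 6 heavy chain constant genes in TPM on a log axis, in genome order of transcription, with naive B cells in blue and plasma cells in orange (1 library each) and bars for the 95% counting interval. Ighm stands far above the rest in both libraries, 5 genes are higher in plasma cells, and Gm900 is lower.

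The order of the IgG genes by TPM was the same in both libraries. In naive B cells the order of TPM was Ighg (166), AI324046 (77.2), Ighg2c (35.4) and Ighg1 (30.8). In plasma cells it was Ighg (1034), AI324046 (754), Ighg2c (706) and Ighg1 (77.1). Counting intervals of neighbours in the order did not overlap except for Ighg2c and Ighg1 in naive B cells, at 33.1 to 37.8 and 28.4 to 33.4 TPM. With its secreted length, Ighg2c in plasma cells (857 TPM) would pass AI324046 (754 TPM), so the order of that pair depends on the length used.

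**Figure D2:**
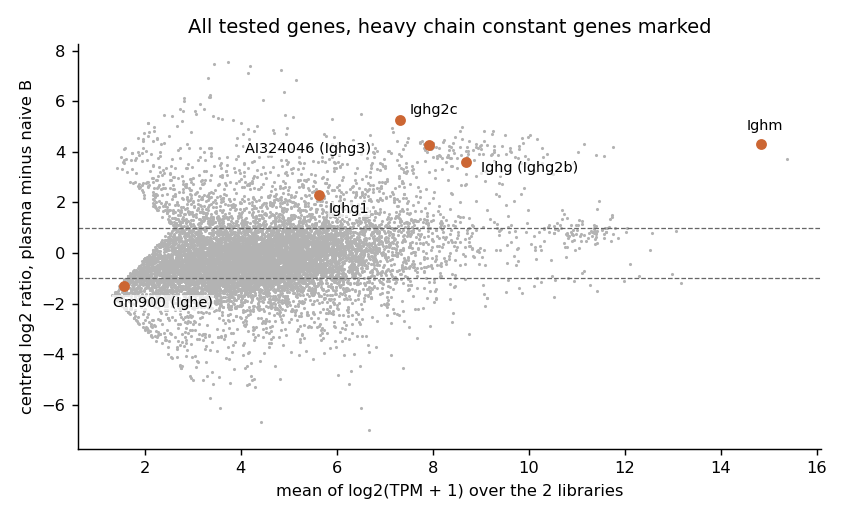
Centred log2 ratio of plasma over naive B cells against mean log2(TPM + 1) for the 10219 genes tested (grey), with the 6 heavy chain constant genes in orange and dashed lines at the call limits of -1 and 1. Ighm lies at the far right at 4.30, Ighg2c is highest of the 6 at 5.27, and Gm900 is below the lower line at -1.28.

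Summed over the 4 members, heavy chain constant message made up 0.949% of all TPM in naive cells and 9.42% in plasma cells. In estimated counts the same shares were 0.705% and 11.3%. The sum went from 9493 to 94170 TPM, with a centred ratio of 4.30 that Ighm sets almost alone. The 4 IgG genes together went from 310 to 2571 TPM, with a centred ratio of 4.04. The TPM of the 4 IgG genes therefore rose 8.30-fold and that of Ighm 9.97-fold. The IgG targets hold constant exons only. Whether their reads came from messages joined to a variable exon, in either library, was not tested.

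Among the listed genes, the make-up by class was nearly the same in the 2 libraries. IgD, for which the naive cells were sorted, and IgA had no target and are missing from it. Ighm took 97.6% of the TPM of the 4 members in naive cells and 98.1% in plasma cells. With Ighg3 and Ighe included, these shares were 96.7% and 97.3%. Ighg1 went from 0.324% to 0.0819% of the 4 members, and Ighg2c went from 0.373% to 0.750%. The Ighm share of estimated counts was 98.16% in naive cells and 98.47% in plasma cells, with Clopper-Pearson intervals of 98.10% to 98.21% and 98.46% to 98.48%.

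Within IgG the make-up differed more. Of the TPM of the 4 IgG genes, Ighg went from 53.7% in naive B cells to 40.2% in plasma cells, and Ighg1 from 9.95% to 3.00%. Ighg2c took 11.4% and then 27.5%, and AI324046 24.9% and then 29.3%. In estimated counts the Ighg2c share went from 13.6% (12.8% to 14.5%) to 31.6% (31.3% to 31.9%), and the Ighg1 share from 9.43% (8.72% to 10.2%) to 2.75% (2.65% to 2.85%). The 2 genes with shared sequence, Ighg2b and Ighg2c, moved in opposite directions as shares, and these 2 shares carry the uncertainty of divided reads given above.

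**Figure D3:**
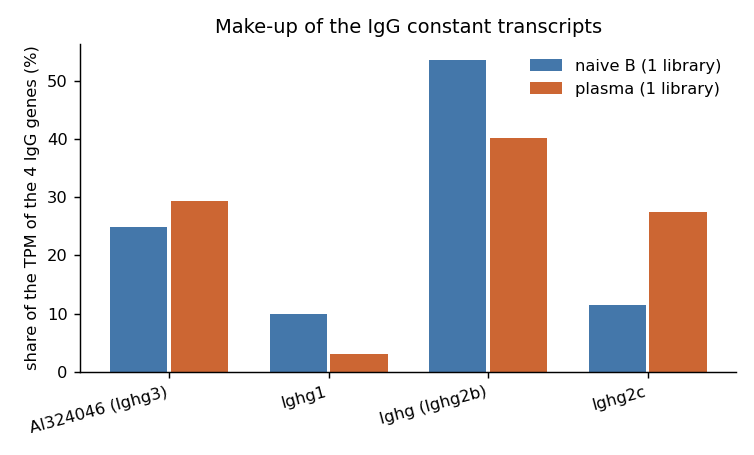
Share of the summed TPM of the 4 IgG constant genes taken by each gene in naive B cells (blue) and plasma cells (orange), 1 library each. Ighg2c goes from 11.4% to 27.5%, Ighg1 from 9.95% to 3.00%, and Ighg stays the largest in both.

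An antibody needs a light chain for each heavy chain. Igkc, the constant gene of kappa light chains, rose from 16615 to 109367 TPM, a centred ratio of 3.70. Among the lambda constant genes, Iglc2 rose from 1962 to 4111 TPM (centred ratio 2.05), while Iglc3 had 1583 and 1378 TPM (0.79, not called, though count scaling by TMM factors or DESeq2 size factors put it at 1.19 and 1.22, past the limit). Of 5 light chain constant genes looked for, 3 were listed. Heavy over light constant TPM was 0.471 in naive cells and 0.820 in plasma cells. Against Igkc alone it was 0.571 and 0.861. In estimated counts, which are not scaled by length, it was 1.92 and 3.75. On each of these scales the heavy to light ratio was higher in the plasma library. None of the scales counts Ighd or Igha, which had no target, and the naive cells were sorted for IgD. The effect of this gap on the ratio was not tested. The 175 genes identified as immunoglobulin genes held 5.18% of TPM in naive cells and 35.9% in plasma cells. The heavy chain constant members were 18.3% and 26.2% of that. Genes that could not be screened, such as Gm16609 and Gm16700 below, are outside this sum.

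Heavy chain variable genes carry the other end of the same message. The 57 listed Ighv genes, summed after the constant values had been seen, held 3935 TPM in naive cells and 27566 in plasma cells, a centred ratio of 3.79. Ighv over constant TPM was 0.415 in naive cells and 0.293 in plasma cells. The constant sum is that of the 4 members, so it holds no Ighd, Igha, Ighg3 or Ighe. The Ighv genes were found by name, so variable genes under other names would be missed. The effect of these gaps on the ratio was not tested.

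The messages for the 2 signalling chains that hold membrane immunoglobulin were not called higher. Cd79a, a signalling chain of the B cell receptor, had 2572 TPM in naive cells and 1181 in plasma cells, with a centred ratio of -0.14 that was not called. It would be called lower without centring (-1.12), and it turns to 0.27 and 0.30 under the 2 count scalings. Cd79b, its partner chain, went from 2587 to 585 TPM and was called lower at -1.16, a call lost under those scalings (-0.75 and -0.72). Ighm over Cd79a TPM was 3.60 in naive cells and 78.2 in plasma cells, and Ighm over Cd79b was 3.58 and 158. Jchain, listed as Igj, encodes the joining chain of polymeric IgM and IgA, and it rose from 510 to 3027 TPM (3.55). Mzb1, an endoplasmic reticulum protein that helps IgM assembly, rose from 290 to 3554 TPM (4.60). Pigr, the epithelial receptor for polymeric antibody, was under 5 TPM in both libraries.

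A list of antibody Fc receptors and related genes was mostly lower. Of its 14 genes, 12 were tested, 9 were called lower, 0 higher and 3 neither. The median centred ratio was -2.07 against -0.23 over all genes tested, of which 22.1% were called lower and 16.0% higher. The 9 include Fcer1g (-1.49) and Fcrl1 (-2.66), which are counted by list and not by shown binding of antibody. With TMM factors 2 were called higher and 9 lower. Fcer2a, the low-affinity IgE receptor CD23, went from 1062 to 6.78 TPM (-6.11). The naive cells were sorted for CD23, and the sort and the cell type cannot be told apart in that value. Fcmr, the receptor for IgM and listed as Faim3, went from 1135 to 23.6 TPM (-4.54). Fcgrt, the neonatal receptor that recycles IgG, went from 36.5 to 0.0897 TPM (-4.12). Fcgr2b, the inhibitory IgG receptor of B cells, was not called, with a centred ratio of 0.76, but passed the limit under TMM factors (1.17) and DESeq2 size factors (1.20). Myeloid cells also express several of these receptors, and the myeloid marker list summed to 145 TPM in naive cells and 1.99 in plasma cells. The part of such cells in the receptor values was not tested.

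The choice between membrane and secreted ends is made by the 3′ end processing machinery. Of 18 factors linked to it, 2 were called higher, 3 lower and 13 neither, with a median of -0.61. Over all genes tested, 16.0% were called higher and 22.1% lower, with a median of -0.23. The count of lower calls depended on the scaling and was 13 without centring and 0 with TMM factors. Ell2, an elongation factor known to favour the secreted end in plasma cells, rose from 19.6 to 127 TPM (3.63). Eaf2, which binds ELL family proteins, rose from 17.7 to 189 TPM (4.33). Cstf2t, a relative of the cleavage factor Cstf2, went from 36.6 to 7.23 TPM and was called lower at -1.20, a call lost under the count scalings (-0.93 and -0.90) and with 5 TPM added (-0.92). Cstf2 itself had 58.5 and 14.3 TPM (-0.97, not called).

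Class switching was the remaining process with a list. Of 19 factors tested, 4 were called higher, 4 lower and 11 neither, with a median of -0.05. These counts lie near the shares over all genes tested, 16.0% higher and 22.1% lower. Without centring 1 was called higher and 10 lower, with TMM factors 5 and 2, and with 5 TPM added 3 and 1. H2afx, the histone that marks breaks in DNA, rose from 28.8 to 47.7 TPM (1.69, and 0.71 without centring, which ends the call). Mdc1, which binds that mark, went from 45.5 to 7.74 TPM and was called lower (-1.42).

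**Figure D4:**
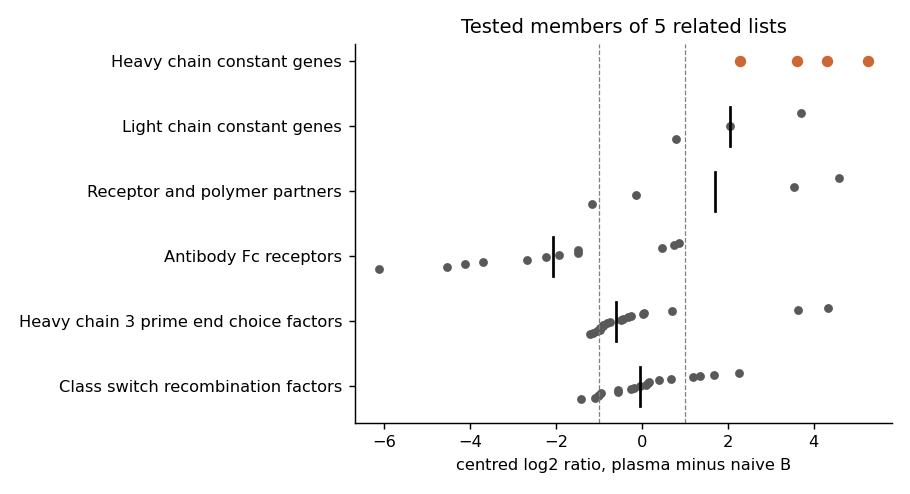
Centred log2 ratios of the 4 heavy chain constant members (orange) and of the tested members of 5 related lists (grey, black bar for the median), with dashed lines at the call limits of -1 and 1. The heavy chain members lie from 2.28 to 5.27, the Fc receptors mostly below -1, and the 3′ end and switch factors mostly between the lines apart from a few genes.

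A search for genes with a ratio nearest to that of the summed members left out the genes identified as immunoglobulin genes. The 3 nearest of at least 50 TPM in 1 library were Gm16609 (4.29), Gm16700 (4.28) and Fdps (4.32). Fdps encodes farnesyl diphosphate synthase, an enzyme of sterol synthesis, and went from 32.6 to 336 TPM. The other two have no entry in the gene name table used here and could not be screened as immunoglobulin genes. The likeness is over 2 libraries only.

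The labels were checked on markers. Of 8 naive B cell markers, 8 were called lower in plasma cells, with a median of -3.50. Of 9 plasma cell markers, 8 were tested and 7 were called higher, with a median of 4.34 over those tested. Tnfrsf17 was not tested, at 2.24 TPM in naive cells and 1.68 TPM in plasma cells. Prdm1, a regulator of plasma cell identity, rose from 2.29 to 249 TPM. Sdc1, which encodes the CD138 of the labelled sort, was not called, at 11.1 and 5.38 TPM (0.06). T cell markers summed to 95.9 TPM in naive cells and 5.08 in plasma cells, and erythroid markers to 82.5 and 2.29. At 0 in the plasma library were 2 of 8 T cell, 1 of 8 myeloid and 4 of 6 erythroid markers. Markers of other cells were thus low in both libraries beside Ighm, and lower in the one where Ighm was high.

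ATAC peaks were counted in a window of 250 kb over the constant genes, chr12:114430001-114680000 in mm9. The window was set from an approximate position, since the annotation at hand is of GRCm38 and positions were not carried over, so no peak is assigned to a gene. Each list held 6 peaks there, and 3 of each overlapped a peak of the other. The share of overlapping peaks over the whole lists was not computed. Whether 3 of 6 is usual for these lists therefore cannot be said. The score is that of the authors' peak caller. Whether its values can be compared between the 2 lists was not tested, so the place of a score in its own list is also given for several peaks. The peaks covered 10.1 kb in naive cells and 23.2 kb in plasma cells. Over the whole lists the median widths were 1.63 and 1.85 kb.

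The overlapping peaks lay near the low-coordinate end, which for a minus-strand locus is the end that transcription reaches last. The first was chr12:114459598-114461945 in naive B cells, with a score of 261, and chr12:114457927-114461874 in plasma cells, with 342. These scores were above 56.2% and 60.2% of the peaks of their own lists. The second had 239 in naive cells and 82.8 in plasma cells, above 53.7% and 16.8% of the peaks of their own lists. The third, chr12:114482415-114483746 in naive B cells, had 102 there and 488 in plasma cells, above 27.3% and 71.9% of the peaks of its own list.

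The other peaks stood in the list of 1 cell type alone. In plasma cells they were chr12:114522997-114526108 (77.1), chr12:114542317-114547906 (88.9) and chr12:114564994-114569552 (63.6), and they were 3.11, 5.59 and 4.56 kb wide. Their scores were low for the list, which had a median of 250. In naive B cells they were 2 narrow peaks, chr12:114552754-114553477 (60.3) and chr12:114559038-114560005 (52.9), and chr12:114661428-114664218 (377) near the high-coordinate end. The score of 377 was above 67.5% of the peaks of the naive list. Depth is not known from the peak lists, and a peak missing from a list may lie under the caller's threshold, since the lowest score in the lists was 50.01.

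**Figure D5:**
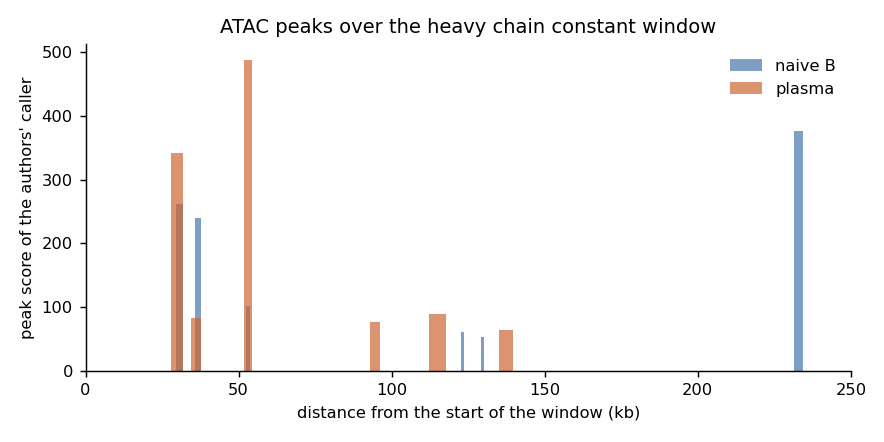
ATAC peaks of naive B cells (blue) and plasma cells (orange) over the heavy chain constant window, by distance from its start in kb, with bar width for peak width and height for the score of the authors' caller. Overlapping peaks lie in the first 60 kb, 3 broad plasma peaks of low score in the middle, and a naive peak with a score of 377 near the far end.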

How the data were processed

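Per the file headers, each deposited RNA table gives estimated counts and TPM for every transcript, made by the authors with kallisto, and the deposited ATAC lists hold 1 score per peak by the authors' caller. Per the submitters' processing notes the tools included kallisto, TopHat, Bowtie, HOMER and MACS 1.4, and the build was mm9. The sources used here do not name the kallisto index, the peak threshold or any pooling. The labels describe stranded, mRNA-selected RNA libraries. Effective length was listed length minus 49 for 60997 of 61112 targets. Counts are written to 6 significant digits.

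TPM and estimated counts were summed to 26599 genes. Ratios were log2(plasma TPM + 1) minus log2(naive TPM + 1), centred on the median over the 7495 genes that reached 5 TPM in each library, which understates the change of low genes. Intervals are exact Clopper-Pearson (shares and count ratios) or Poisson (levels) at 95% on rounded estimated counts. They cover counting error only, since reads that carry no molecular identifier can be copies of 1 molecule. edgeR 4.0.16 TMM factors (1.28 and 0.783) and DESeq2 1.42.0 size factors (1.19 and 0.840), both on rounded estimated counts, served only as other scalings. No test was run, because each cell type had 1 library. Sequences, forms and loci came from GENCODE M21 (GRCm38). Of 101 list entries, 99 were matched. Genes named were the members and their transcripts, the light chain, Cd79 and joining chain genes, and markers. The 3 called members of each other list with the largest ratio were named too. So were the 3 genes nearest to the summed members, with genes identified as immunoglobulin genes left out. Cstf2, Fcgr2b, the Ighv sum and the peaks described singly were chosen after values were seen. The members and lists were chosen with earlier results of these data known. ChIP-seq samples and contact maps were not used here. The values of 1 gene under this rule are not reported here.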

Additional observations from a re-analysis of the deposited data

How the results depend on the processing

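All 4 members were called higher under each of the 7 other settings of the gene comparison. The centred ratio of their sum was 4.34 with a pseudocount of 0.1 TPM, 4.15 with 5 TPM and 3.31 without centring. It was 4.70 with TMM factors and 4.73 with DESeq2 size factors. After TPM were rescaled without the genes identified as immunoglobulin genes, it was 4.40. Over all genes, 1634 were called higher and 2257 lower, so 42.0% of calls were higher. Without centring the counts were 792 and 5890 (11.9% higher), with 5 TPM added 1239 were lower (52.8% higher), and with no filter 3680 were higher (60.7%). Under TMM and DESeq2 factors 56.7% and 58.2% of calls were higher. Over the 5 related lists 17 genes were called lower, 34 without centring and 11 with TMM factors. In estimated counts the Ighm share was 98.2% (naive) and 98.5% (plasma), the members' share of the library 0.705% and 11.3%, and the heavy to light ratio 1.92 and 3.75. In TPM with 6 genes, the Ighm share was 96.7% and 97.3%, and the share of the 6 genes in the library 0.958% and 9.49%. The heavy to light ratio in TPM was then 0.475 and 0.826, against 0.471 and 0.820 with the 4 members. Also in TPM, the secreted length for Ighg2c put the Ighm share at 97.5% and 97.9%. Against Igkc only, the heavy to light ratio in TPM was 0.571 and 0.861. With a score of at least 100, 2 plasma peaks were left in the window. Settings with 6 genes, Igkc only and the secreted length were chosen after seeing the data. No called value changed sign under the settings run. No paired analysis was possible because each cell type had 1 library and no test was run. Depth limits Gm900, with 18 counts in plasma cells, and the differences between libraries as a whole rest on 1 library each.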
